A study of Mus musculus with 4 samples.

Results

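T-box transcription factors were examined in single-cell RNA profiles of mouse embryonic hearts. The members are the 7 genes Tbx1, Tbx2, Tbx3, Tbx5, Tbx15, Tbx18 and Tbx20, taken by their symbols from the 32285 genes of the count matrices, and each symbol was carried by 1 gene. T-box factors bind DNA through a shared domain and act as activators or repressors of transcription. In the embryonic heart Tbx5 and Tbx20 work with Nkx2-5 and Gata4 in the chamber myocardium, and Tbx2 and Tbx3 repress chamber genes in the atrioventricular canal and the developing conduction system. Tbx18 marks the epicardium and the myocardium of the sinus horns, Tbx1 acts in pharyngeal cells that feed the outflow tract, and Tbx15 is known from limb and skeletal development.

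All cells came from hearts at E10.5 with the surrounding cardiogenic region. Control embryos carried floxed Tie2 alleles (Tie2fl/fl) without a recombinase, and Tie2-cko embryos carried the same floxed alleles with the knock-in Nfatc1Cre, which is active in endocardial cells (EdCs), so the gene Tie2 (Tek) was targeted in the endocardium. Cushion mesenchyme descends from the endocardium. Control embryos had no Nfatc1Cre allele, so that allele and the loss of Tie2 cannot be told apart. The mice were of mixed background and of both sexes. Each group held 2 libraries, numbered 5 and 7 for the control and 6 and 8 for Tie2-cko. By the methods, libraries of both genotypes that came from 1 litter and matched in somite number shared a sequencing lane, and the sources used here do not say which library belongs with which. The methods also state that 2 hearts of each genotype, taken from 1 litter, were used. The p-values below therefore measure only the spread between these libraries, which may be technical, and not the spread between litters.

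T-box factors recognise the half-site AGGTGTGA, which reads TCACACCT on the other strand. The stretch ahead of Nppa, the natriuretic peptide gene that Tbx5 activates and Tbx2 and Tbx3 repress, is shown because Nppa levels are set beside Tbx2 and Tbx3 below. It holds the 250 bases before the RefSeq start (GRCm38.p6, chr4:148000472-148000721, plus strand), with the half-site in capitals.
Nppa: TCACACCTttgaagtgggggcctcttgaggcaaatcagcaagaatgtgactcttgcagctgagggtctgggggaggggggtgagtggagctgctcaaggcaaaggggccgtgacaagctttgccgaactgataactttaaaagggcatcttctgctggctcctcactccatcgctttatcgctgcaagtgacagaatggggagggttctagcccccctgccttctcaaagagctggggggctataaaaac
The half-site lies at position -250 from the start, and was found on either strand in 368 of 32851 RefSeq promoter stretches of this length (1.12%). Its core GGTGTG, which the half-site contains, was found in 16.3% of them. Of the 12 chamber genes listed as T-box targets 10 had a promoter in the table, and Nppa was the 1 with the complete half-site, while Nppb and Mycn held the core alone. The 3 members with a promoter in the table, Tbx1, Tbx18 and Tbx20, had neither.

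The 7 members lie on 5 chromosomes in the GENCODE M21 annotation of GRCm38, and all are protein-coding. Tbx3 (chr5:119670669-119684724) and Tbx5 (chr5:119832668-119885219) are neighbours on the plus strand with 147944 bases between them. Tbx18 (chr9:87702800-87731260) and Tbx20 (chr9:24718138-24774303) share a chromosome on the minus strand. Tbx2 is at chr11:85832551-85841948 with Tbx4 44474 bases away, Tbx1 at chr16:18580979-18590671 and Tbx15 at chr3:99240381-99354259. The antisense gene Tbx3os1 overlaps the 5′ end of Tbx3 on the other strand.

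The 4 libraries held 169361996 to 259775540 UMIs (unique molecular identifiers, each counting 1 captured RNA), and 33419 cells were kept, 5684 to 10097 per library. The median per kept cell was 25740 UMIs in library 6 and 14898 to 17447 in the others. Cells were placed in 26 clusters, of which 3 with few UMIs (3993 cells) were left out of the levels, and named by marker genes, without any T-box gene among the genes used for clustering. The 12330 cardiomyocytes (CMs) were clustered again into ventricular, trabecular ventricular, atrial, sinus venosus, atrioventricular canal and outflow tract CMs. Further heart cells were 1608 chamber EdCs, 1166 cushion EdCs, 3207 cushion mesenchymal cells (MCs) and 1550 epicardial cells. Libraries 5 and 6 stood apart from 7 and 8: heart cells made up 46.3% and 36.7% of the kept cells against 73.1% and 75.3%, and 1 ventricular cluster held 1457 and 576 cells of libraries 5 and 6 but 1 and 16 of libraries 7 and 8. Any 2 libraries shared 12 to 29 barcodes among kept cells. Tek itself stood at 86.3 and 99.3 CPM (counts scaled to equal library totals) in the control chamber EdCs and at 14.8 and 17.6 in the Tie2-cko chamber EdCs (log2 fold change -2.52 ± 0.17 (SE), adjusted p = 0.00151 by edgeR's quasi-likelihood test). Cushion EdCs held Tek at 97.5 and 184 CPM in the control libraries and at 25.9 and 23.5 in the Tie2-cko libraries. The log2 fold change there was -2.52 ± 0.28 (adjusted p = 0.0560 by edgeR's quasi-likelihood test).

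Tbx20 was the member with the most UMIs (59889), and its levels ran from cushion cells downward. Levels are means over the cells of a library, in UMIs per 10000 UMIs of the cell, and differences of level between cell types are described without a test because the clusters were drawn on the same cells. In cushion EdCs, which line the endocardial cushions, Tbx20 stood at 2.83 and 2.90 in the control libraries and 3.30 and 2.92 in the Tie2-cko libraries. MCs, the mesenchyme that fills the cushions, held 2.58 and 2.68 in the control libraries and 3.06 and 2.67 in the Tie2-cko libraries. Cushion EdCs were above MCs in 4 of 4 libraries, but the ranges of both cell types overlapped. Among the MCs the cluster led by Stmn4, Postn and Inhba held 2.85 to 3.29 and the largest MC cluster 2.30 to 2.76.

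In CMs the highest Tbx20 level was in the atrioventricular canal, at 1.85 and 1.75 in the control libraries and 2.19 and 1.86 in the Tie2-cko libraries. Outflow tract CMs followed with 1.34 and 1.37 in the control libraries and 1.26 and 1.47 in the Tie2-cko libraries, and atrial CMs with 0.882 and 0.853 in the control libraries and 0.946 and 0.957 in the Tie2-cko libraries. The levels of the atrioventricular canal, outflow tract, atrial and ventricular CMs fell in this order in 4 of 4 libraries with no overlap between neighbours. Ventricular CMs held 0.630 to 0.767, sinus venosus CMs 0.486 to 0.772 and trabecular ventricular CMs 0.318 to 0.563. Neither ventricular and sinus venosus CMs nor sinus venosus CMs and chamber EdCs were separated beyond the spread of the libraries. Chamber EdCs, the endocardium of the ventricles and atria, held 0.380 and 0.516 in the control libraries and 0.426 and 0.567 in the Tie2-cko libraries. This was below the cushion EdCs in every library, at a mean of 0.472 ± 0.0848 (SD, n = 4) against 2.99 ± 0.209. Epicardial cells were lowest among the heart cells at 0.241 to 0.313, while red blood cells, which should lack the gene, held 0.0156 to 0.0594.

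**Figure D1:**
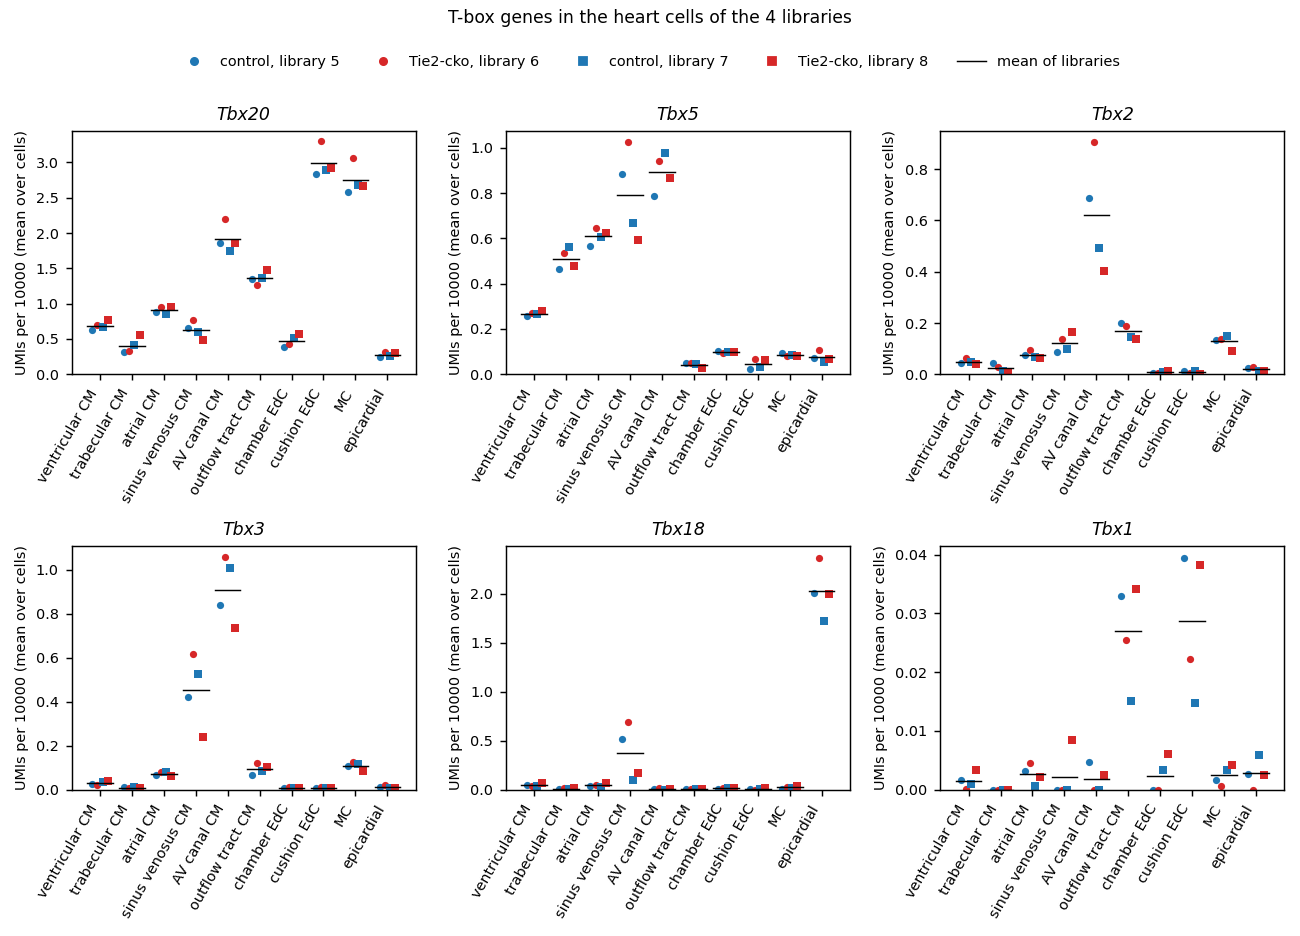
Levels of 6 T-box genes in UMIs per 10000 (vertical axis of each panel) in 6 cardiomyocyte regions and 4 other heart cell types, with 1 point per library and a line at the mean of the 4 libraries. Tbx20 is highest in cushion EdCs and MCs, Tbx18 in epicardial cells, and Tbx2, Tbx3 and Tbx5 in atrioventricular canal CMs. Blue marks the control and red the Tie2-cko libraries, and the vertical scale differs between panels.

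Shares of cells with at least 1 Tbx20 UMI followed the levels, in the groups named here, once every cell was thinned to 5500 UMIs. Tbx20 was then found in 69.8% to 75.4% of cushion EdCs, 68.8% to 73.5% of MCs and 58.9% to 69.1% of atrioventricular canal CMs. The same depth gave 17.4% to 22.1% of chamber EdCs and 0.621% to 4.05% of red blood cells. Without thinning the shares were 84.0% to 95.8% in cushion EdCs and 8.12% to 13.5% in red blood cells. The thinning left out 2, 1, 13 and 16 shallow cushion EdCs in libraries 5 to 8.

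Tbx5, which activates chamber genes and is needed for atrial and septal development, was high at the inflow end of the heart and low at the outflow end. Atrioventricular canal CMs held 0.788 and 0.978 in the control libraries and 0.943 and 0.866 in the Tie2-cko libraries. Sinus venosus CMs held 0.884 and 0.666 in the control libraries and 1.02 and 0.594 in the Tie2-cko libraries. Both regions overlapped, and each was the higher in 2 of 4 libraries. Atrial CMs stood at 0.568 and 0.607 in the control libraries and 0.645 and 0.625 in the Tie2-cko libraries. They were below the sinus venosus in 3 of 4 libraries with overlapping ranges. Trabecular ventricular CMs held 0.463 to 0.562 and the remaining ventricular CMs 0.256 to 0.280. The levels of atrial, trabecular and ventricular CMs did not overlap, although library 6 held only 22 trabecular cells. Shares of cells with a Tbx5 UMI did overlap after thinning. They were 10% to 30% in trabecular, 22.3% to 28.7% in atrial and 12.5% to 14.0% in ventricular CMs. The ventricular mean was 0.268 ± 0.0104 (SD, n = 4), although 1 of the ventricular clusters was nearly confined to libraries 5 and 6. At the other end of the tube, outflow tract CMs held 0.0490 and 0.0460 in the control libraries and 0.0503 and 0.0271 in the Tie2-cko libraries. That was below the lowest ventricular library and inside the range of cushion EdCs, 0.0244 to 0.0656. After thinning, Tbx5 was found in 33.2% to 40.0% of atrioventricular canal CMs, 0.802% to 5.36% of outflow tract CMs and 0% to 0.657% of red blood cells. Tbx5 was low in the other heart cells, at 0.0925 to 0.101 in chamber EdCs and 0.0556 to 0.109 in epicardial cells.

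Tbx2 and Tbx3, the repressors of the family in this setting, were both highest in the atrioventricular canal among heart cells. Tbx2 stood there at 0.686 and 0.492 in the control libraries and 0.905 and 0.404 in the Tie2-cko libraries. Library 6 was the highest and libraries 7 and 8 the lowest, so libraries 5 and 6 stood above libraries 7 and 8 and the genotypes overlapped. Outflow tract CMs came next at 0.139 to 0.202, with no overlap with the atrioventricular canal. MCs held 0.0906 to 0.150 and sinus venosus CMs 0.0862 to 0.165, which overlapped each other. Ventricular CMs held 0.0400 to 0.0630 and chamber EdCs 0.00440 to 0.0124.

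Tbx3 in atrioventricular canal CMs stood at 0.839 and 1.01 in the control libraries and 1.06 and 0.734 in the Tie2-cko libraries. Sinus venosus CMs, the region of the future pacemaker, held 0.422 and 0.526 in the control libraries and 0.617 and 0.237 in the Tie2-cko libraries. The canal was above the sinus venosus in every library, and both stood above all other heart cells without overlap. Atrial CMs held 0.0594 to 0.0785 and ventricular CMs 0.0219 to 0.0404. Tbx2 did not share this second site, since its sinus venosus level of 0.122 ± 0.0363 (SD, n = 4) lay beside 0.128 ± 0.0260 in MCs. The antisense gene Tbx3os1 had 999 UMIs in the kept cells, against 8457 for Tbx3.

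At a depth of 5500 UMIs, the share of canal CMs with a Tbx2 UMI was 31.4% and 19.7% in the control libraries and 43.6% and 18.3% in the Tie2-cko libraries. The share with a Tbx3 UMI was 32.6% and 42.4% in the control libraries and 34.5% and 35.2% in the Tie2-cko libraries. Red blood cells gave 0% to 0.328% for Tbx2 and 0.164% to 0.578% for Tbx3. Of the canal CMs with a Tbx2 UMI, the share that also had a Tbx3 UMI was 29.1% and 50.8% in the control libraries and 37.5% and 32.7% in the Tie2-cko libraries. Of those without a Tbx2 UMI it was 34.2% and 40.3% in the control libraries and 32.3% and 35.8% in the Tie2-cko libraries. The share was higher with Tbx2 in 2 of 4 libraries, so the canal showed no common direction at this depth. For the same pair of genes it was higher in 4 of 4 libraries in ventricular and in atrial CMs, and in 3 of 4 in outflow tract CMs and in MCs. In sinus venosus CMs, the share with a Tbx5 UMI among cells with Tbx3 was 68.0% and 55.6% in the control libraries and 66.7% and 28.6% in the Tie2-cko libraries. Among the sinus venosus cells without Tbx3 it was 34.8% and 28.6% in the control libraries and 44.6% and 23.5% in the Tie2-cko libraries. This was the lower value in 4 of 4 libraries, by a small margin in library 8. The Tie2-cko shares with Tbx3 rest on few cells. Tbx3 was found in 17.6% of 68 thinned sinus venosus CMs in library 6 and 12.1% of 116 in library 8. Among atrial CMs with a Tbx5 UMI, Tbx20 was found in 43.7% and 37.2% in the control libraries and 53.6% and 47.6% in the Tie2-cko libraries. Among atrial CMs without a Tbx5 UMI it was found in 32.0% and 29.3% in the control libraries and 36.0% and 32.9% in the Tie2-cko libraries, again lower in 4 of 4 libraries. Epicardial cells with Tbx18 had a Tbx20 UMI in 14.0% and 15.8% in the control libraries and 18.5% and 12.6% in the Tie2-cko libraries. Those without Tbx18 had one in 11.3% and 9.18% in the control libraries and 14.6% and 9.73% in the Tie2-cko libraries, which is lower in each library. These shares are descriptions over cells of the same libraries.

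Nppa, whose promoter half-site is shown above, was low in the region where both repressors were highest, and also in sinus venosus and outflow tract CMs. Nppa is 1 of the markers that named the trabecular region, and it was among the genes open to the clustering, so its levels are a description. Atrial CMs held 45.5 and 41.4 in the control libraries and 55.1 and 43.0 in the Tie2-cko libraries. Canal CMs held 4.59 and 3.78 in the control libraries and 0.978 and 3.35 in the Tie2-cko libraries. Sinus venosus CMs held 1.77 to 4.83 and outflow tract CMs 1.25 to 2.68. The canal, sinus venosus and outflow values reached into the range of MCs, 0.646 to 2.91, a cell type that should hold little of this transcript. Within each library the canal and the sinus venosus were above MCs, which held 1.23, 0.646, 2.91 and 1.71 in libraries 5 to 8. Outflow tract CMs were above MCs in libraries 5, 6 and 8 and below them in library 7. Outflow tract CMs, with this low Nppa level, held Tbx2 at 0.169 ± 0.0310 and Tbx3 at 0.0926 ± 0.0221 (SD, n = 4). Their Tbx5 mean was the lowest of the 10 heart groups.

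**Figure D2:**
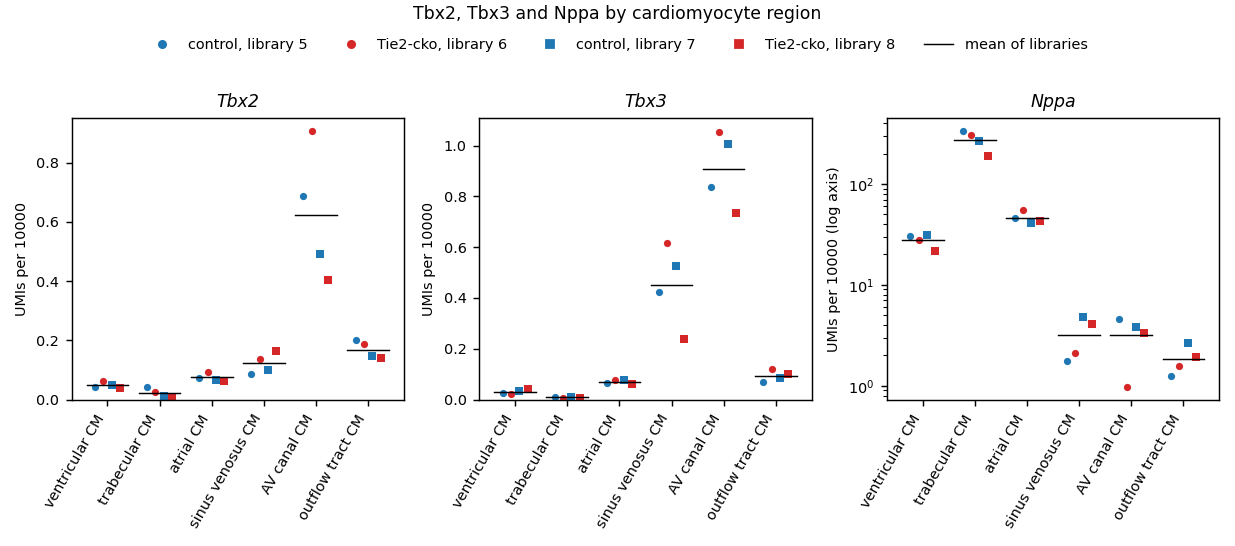
Levels of Tbx2, Tbx3 and Nppa (UMIs per 10000, with a log axis for Nppa) in the 6 cardiomyocyte regions, with 1 point per library and a line at the mean. Tbx2 and Tbx3 peak in the atrioventricular canal, where Nppa spans 0.978 to 4.59, while the trabecular region holds Nppa at 189 to 334 and little of either repressor.

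Tbx18, a marker of the epicardium, was concentrated in 1 cell type. Epicardial cells held 2.01 and 1.72 in the control libraries and 2.37 and 1.996 in the Tie2-cko libraries. Sinus venosus CMs were second at 0.520 and 0.0941 in the control libraries and 0.691 and 0.171 in the Tie2-cko libraries. The lowest epicardial library was above the highest sinus venosus library, and sinus venosus CMs were above every other CM region in all libraries. Ventricular CMs held 0.0347 to 0.0628 and outflow tract CMs 0.00308 to 0.00677. After thinning, the share of epicardial cells with a Tbx18 UMI was 62.7% and 54.4% in the control libraries and 72.5% and 64.6% in the Tie2-cko libraries. In red blood cells it was 0% to 0.328%.

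The sinus venosus level of Tbx18 divided the library pairs and not the genotypes, with libraries 5 and 6 above libraries 7 and 8. Finer clustering, a separate run with its own set of CMs, gave 2 sinus venosus clusters of 399 and 127 cells, where the main clustering had 1 of 509. The smaller cluster held 54, 41, 26 and 6 cells of libraries 5 to 8. Its Tbx18 level was 1.32 in library 5, 1.10 in library 6 and 0.254 in library 7, on 92, 127 and 7 UMIs. In the larger cluster Tbx18 stood at 0.0587 to 0.162. Nkx2-5, which is known to be absent from the Tbx18-positive sinus horns, held 0.112 to 0.265 in the smaller cluster and 1.47 to 1.90 in the larger. Tbx3 had the reverse order in each of the 3 libraries compared, by a small margin in library 7, with 0.591 in the larger against 0.0730 in the smaller cluster in library 5, 1.00 against 0.235 in library 6, and 0.511 against 0.502 in library 7. The smaller cluster also held Col3a1 at 1.85 to 2.49 and Tcf21 at 0.455 to 2.52, genes of mesenchymal and epicardial cells, with Wt1, a defining epicardial marker, at 0 to 0.0575. The cardiac troponin gene Tnnt2 stood at 14.3 to 35.5 in it, against 46.4 to 61.7 in the larger cluster. Whether the levels of these mesenchymal genes bear on the Tbx18 level was not tested.

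**Figure D3:**
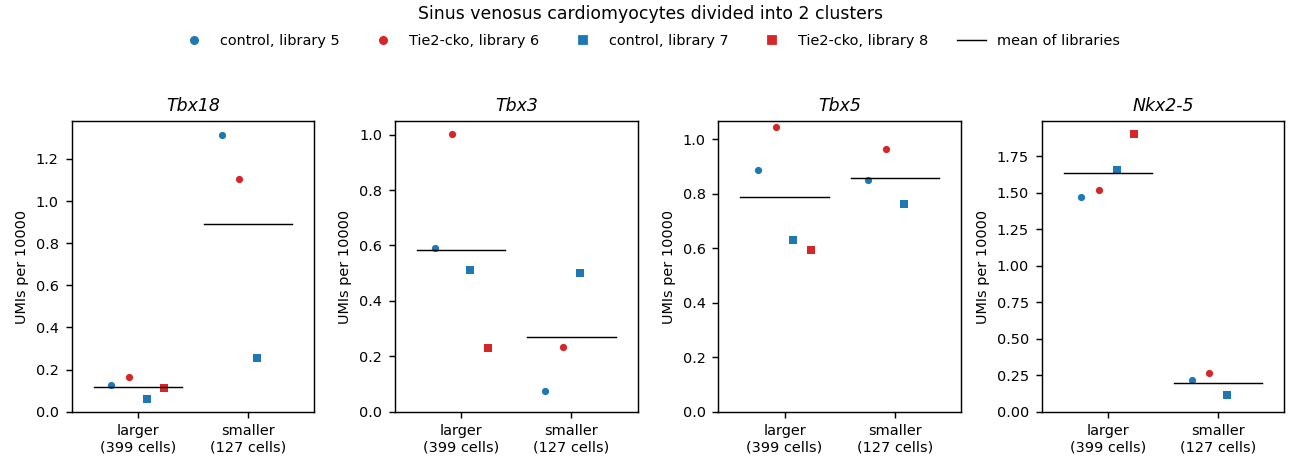
Levels of Tbx18, Tbx3, Tbx5 and Nkx2-5 (UMIs per 10000) in the 2 sinus venosus clusters of the finer clustering, with 1 point per library of at least 20 cells and a line at their mean. Library 8 has no point in the smaller cluster, where it held 6 cells. Tbx18 is high and Nkx2-5 low in the smaller cluster, while Tbx5 overlaps between both.

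Tbx1 was scarce in the heart itself and higher in pharyngeal cells. Outflow tract CMs held 0.0330 and 0.0151 in the control libraries and 0.0254 and 0.0342 in the Tie2-cko libraries. Cushion EdCs held 0.0395 and 0.0147 in the control libraries and 0.0222 and 0.0382 in the Tie2-cko libraries. These were the only heart groups of the 10 compared in which the lowest library was above 0.00589, the highest epicardial value. After thinning the gene was found in 0.545% to 1.80% of outflow tract CMs, 0% to 3.36% of cushion EdCs and 0% to 0.0885% of red blood cells. The cushion value of 0% was in library 7, which held 7 Tbx1 UMIs in cushion EdCs before thinning. No UMI was found in 379 trabecular ventricular CMs, which allows a share of cells with a UMI of up to 0.792%. Among non-cardiac cells, the epithelial cluster led by Pax9, Sfn, Vgll2 and Pax1, of which Pax9 and Pax1 are known from the pharyngeal pouches, held 0.346 and 0.353 in the control libraries and 0.153 and 0.413 in the Tie2-cko libraries. Pharyngeal neural-crest-like mesenchyme held 0.244 and 0.103 in the control libraries and 0.218 and 0.197 in the Tie2-cko libraries. Vascular endothelial cells held 0.152 and 0.245 in the control libraries and 0.0479 and 0.296 in the Tie2-cko libraries. Library 6 was the lowest in the epithelial and the vascular cells.

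Tbx15 was near the limit of detection. The 4 libraries held 28 Tbx15 UMIs in 25 of the 33419 cells, and 13 of the UMIs were in pharyngeal mesenchyme, all in library 5. Cardiomyocytes held 8 of the UMIs, MCs 3 and cushion EdCs 1. No UMI was found in 1608 chamber EdCs, 1550 epicardial cells or 1243 outflow tract CMs, which allows shares of cells with a UMI of up to 0.187%, 0.194% and 0.241%. These limits cover counting error only, and cells that express a gene can give no UMI. Differences of Tbx15 between heart cells were not detectable at this depth.

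Outside the heart the members had further sites. The cluster with the highest Tbx3 level of all was an epithelial one of 117 cells led by Prlr, Foxe1, Pax8 and Hhex, with 2.25, 2.72 and 1.74 in libraries 5, 6 and 8. Hepatic endoderm held Tbx3 at 0.272 to 0.315 in the same 3 libraries. Neuronal cells, led by Nefm, held Tbx2 at 0.742 and 0.703 in libraries 5 and 6, beside 0.686 and 0.905 in atrioventricular canal CMs of these libraries. Foregut mesenchyme, led by Barx1 and Foxf1, held Tbx5 at 0.624 and 0.767, Tbx3 at 0.415 and 0.512, and Tbx2 at 0.270 and 0.296 in these 2 libraries. Neuronal cells and foregut mesenchyme had under 20 cells in each of libraries 7 and 8, so no level is given there. Pharyngeal neural-crest-like mesenchyme held Tbx20 at 0.284 to 0.858, and Tbx2 at 0.255 to 0.296. Finer clustering gave this name to 1300 cells, against 1903 in the main clustering. It also held an unnamed cluster of 624 cells led by Rgs5 and Hand1, genes that lead the main cluster of this mesenchyme as well. The part of such cells in these levels was not tested. An unnamed mesenchymal cluster of 997 cells, led by Lhx2 and Shisa3, held Tbx18 at 0.146 to 0.322, the second highest level of the gene over the clusters, and Tbx5 at 0.102 to 0.398. Tbx20 in red blood cells, macrophages and hepatic endoderm stayed at or below 0.173.

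**Figure D4:**
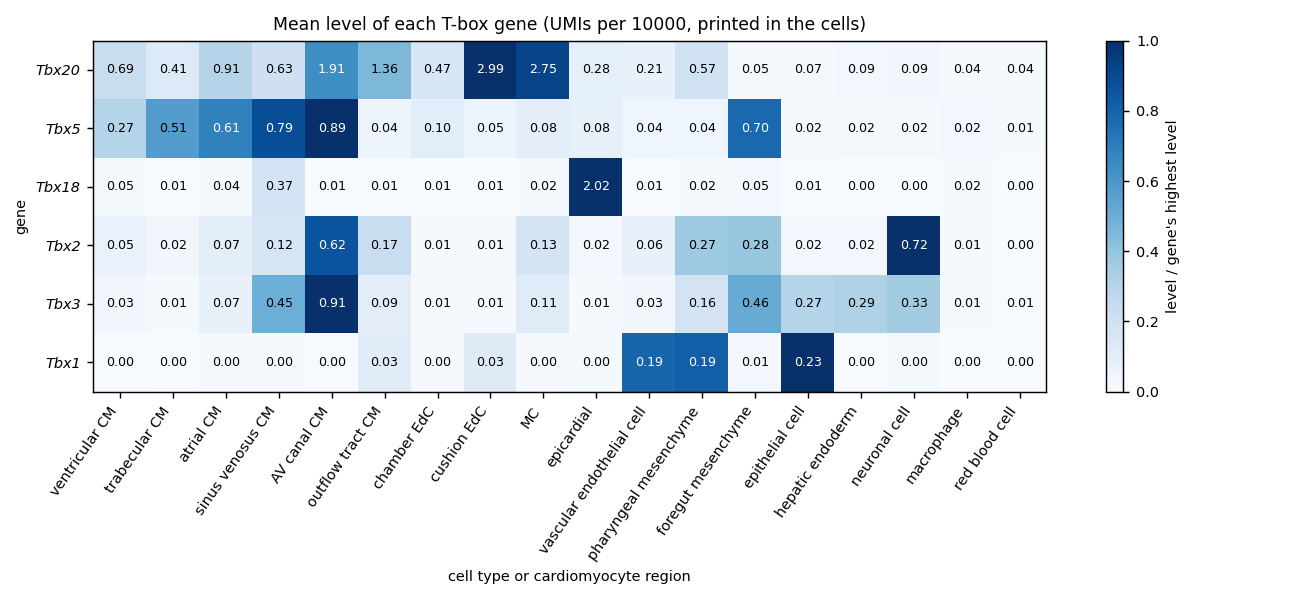
Mean level of 6 T-box genes (rows) in 10 heart groups and 8 other cell types (columns), printed in UMIs per 10000 and coloured as a share of each gene's highest value. Means are over the libraries with at least 20 cells of the type. The highest value is in cushion EdCs for Tbx20, in atrioventricular canal CMs for Tbx5 and Tbx3, in epicardial cells for Tbx18, in neuronal cells for Tbx2 and in epithelial cells for Tbx1. The neuronal mean is of libraries 5 and 6 alone, in which atrioventricular canal CMs held Tbx2 at 0.686 and 0.905.

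Of 10 further T-box family genes in the matrices, Mga, which joins a T-box domain to a partner domain of Max, was found at 0.282 to 0.312 in CMs and 0.488 to 0.616 in cushion EdCs, and at 0.0913 to 0.110 in red blood cells. Tbx4, the neighbour of Tbx2, was highest in foregut mesenchyme with 0.107 and 0.131. The other 8 genes, T, Tbx6, Tbx10, Tbx19, Tbx21, Tbx22, Tbr1 and Eomes, had 0 to 109 UMIs each over all kept cells.

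The genes most like each member over 23 clusters were taken from 9029 genes by Pearson's r of log2 levels. These correlations are across clusters that share libraries and depth, and are a description. Some of these genes helped to draw the clusters. Tbx18 was followed most closely by Wt1 (r = 0.95), Upk1b (0.93), Sowahd (0.92), Aqp5 (0.91) and Ildr2 (0.90). Tbx20 was followed by Tgfb1i1 (0.91), Myadm (0.91), Qpct (0.90), Rcsd1 (0.90) and 5033428I22Rik (0.90). For Tbx3 the closest were Tbx3os1 (0.86), Ncald (0.82), Tmsb15b1 (0.82), Zfhx4 (0.81) and Mettl7a1 (0.79). For Tbx5 they were Wnt2 (0.83), Pgm5 (0.81), Zfpm2 (0.77) and Reep1 (0.76). Tbx2 had Fbxl15 (0.78), Rgs4 (0.75), Cntfr (0.75), Fez1 (0.74) and Gal (0.73), and Tbx1 had Rassf9 (0.72), Nkx2-6 (0.71), Pax9 (0.70), Ripply3 (0.69) and Tac2 (0.69). Tbx15 was below the minimum level for this comparison.

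Whether endocardial loss of Tie2 altered the members was tested on UMIs summed per library and cell type. No member passed the threshold of an adjusted p of 0.05 in any heart cell type or CM region. With a control level of at least 0.2 UMIs per 10000 required, 21 gene and cell combinations were tested in edgeR, and their log2 fold changes ran from -0.60 to 0.64 with standard errors of 0.12 to 0.75. The smallest unadjusted p of the 21 was 0.0992 and the smallest adjusted p was 0.926. The shares of all tested genes that passed were 0% in CMs, MCs and cushion EdCs, 0.00867% in chamber EdCs, where Tek was the 1 gene, 0.00798% in chamber and cushion EdCs together, and 0.042% in epicardial cells. They were 0% in ventricular, atrial, sinus venosus, atrioventricular canal and outflow tract CMs. At an unadjusted p under 0.05, edgeR counted 62 of 15583 genes in CMs, 646 of 12526 in EdCs and 744 of 11536 in chamber EdCs. Cushion EdCs had 231 of 11202, MCs 135 of 12600 and epicardial cells 128 of 11898. Ventricular CMs had 90 of 14575, atrial CMs 99 of 12527 and sinus venosus CMs 68 of 9528. Atrioventricular canal CMs had 162 of 11289 and outflow tract CMs 214 of 11412. None of the 21 member combinations was under 0.05. DESeq2 called 1 to 9 genes in CMs, MCs, cushion EdCs and the tested CM regions, and no member. With a term for libraries 5 and 6 against 7 and 8, edgeR called 9 to 851 genes over the 11 comparisons, and no member.

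In chamber EdCs the CPM of Tbx20 in the summed UMIs was 38.4 and 44.9 in the control libraries and 36.2 and 58.3 in the Tie2-cko libraries. The groups overlapped, with a log2 fold change of 0.18 ± 0.22 (SE) and a 95% interval from -0.31 to 0.68. In cushion EdCs the CPM of Tbx20 was 304 and 316 in the control libraries and 323 and 313 in the Tie2-cko libraries. Its log2 fold change there was 0.03 ± 0.13 with an interval from -0.27 to 0.34, and the groups overlapped. With both EdC clusters joined, each Tie2-cko library had more Tbx20 than either control, as were 18.4% of tested genes, with a log2 fold change of 0.23 ± 0.12. Cushion cells, which held more Tbx20 than chamber cells, were 240 of 622 and 407 of 1016 joined EdCs in the control libraries and 119 of 259 and 400 of 877 in the Tie2-cko libraries, and the part of this make-up in the joined value was not tested. The 10 leading genes of the cushion cluster held Nfatc1 and Wnt4 of the cushion EdC markers, none of the 7 general EdC markers used for naming, and the neuronal marker Stmn2.

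In MCs the CPM of Tbx20 was 273 and 295 in the control libraries and 299 and 297 in the Tie2-cko libraries. Both Tie2-cko libraries were above both controls, as for 12.5% of tested genes, and the log2 fold change was 0.07 ± 0.13. In epicardial cells Tbx20 was also without overlap (0.21 ± 0.13), as were 12.6% of tested genes in that direction. The CPM of Tbx18 in epicardial cells was 219 and 192 in the control libraries and 213 and 227 in the Tie2-cko libraries. The groups overlapped, with a log2 fold change of 0.09 ± 0.14 and an interval from -0.23 to 0.42. The 5 genes past the threshold in epicardial cells encode haemoglobins and fell in the Tie2-cko libraries, and none was a T-box gene.

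Among the CM regions, no T-box gene passed the test in the chambers. The CPM of Tbx5 in atrial CMs was 63.1 and 69.8 in the control libraries and 76.6 and 71.9 in the Tie2-cko libraries. Both Tie2-cko libraries were above both controls, as for 10.8% of tested genes. Its log2 fold change was 0.16 ± 0.13 with an interval from -0.14 to 0.46. Atrial Tbx20 also did not overlap (0.18 ± 0.12). Ventricular Tbx5 (0.01 ± 0.12) and Tbx20 (0.05 ± 0.16) overlapped between the groups, as did outflow tract Tbx20 (0.03 ± 0.15). Over all CMs the log2 fold change was 0.00 ± 0.13 for Tbx5 and 0.06 ± 0.16 for Tbx20.

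In atrioventricular canal CMs, with 59 cells in library 6, the CPM of Tbx2 was 67.8 and 51.2 in the control libraries and 80.0 and 39.9 in the Tie2-cko libraries. Its log2 fold change of -0.04 ± 0.29 had an interval from -0.71 to 0.62. The log2 fold change in the canal was -0.05 ± 0.17 for Tbx3, -0.06 ± 0.19 for Tbx5 and 0.06 ± 0.16 for Tbx20, and all 4 genes overlapped between the groups. Sinus venosus CMs gave the largest values and the widest intervals, with 74 cells in library 6. The CPM of Tbx3 there was 44.6 and 54.1 in the control libraries and 40.8 and 24.0 in the Tie2-cko libraries. Both Tie2-cko libraries were below both controls, as for 10.5% of tested genes, but the log2 fold change of -0.60 ± 0.32 had an interval from -1.34 to 0.14. The mean over cells put Tbx3 of library 6 above both controls (0.617 against 0.422 and 0.526), so the separation held only for summed UMIs. Sinus venosus Tbx20 was likewise lower without overlap on that scale (-0.20 ± 0.25), and Tbx5 overlapped (0.05 ± 0.27). Sinus venosus Tbx18 had an interval from -1.10 to 2.39 around 0.64 ± 0.75, and the value was -0.73 without library 6, -0.06 without library 7 and 2.32 without library 5. Trabecular ventricular CMs held 22 cells in library 6 and were not tested.

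**Figure D5:**
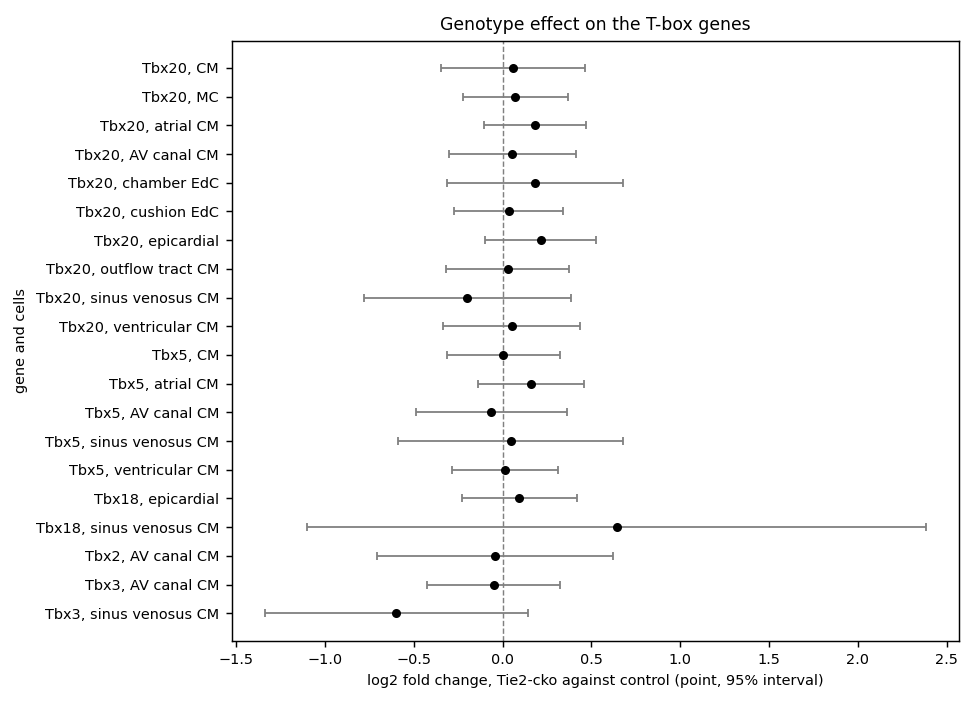
Log2 fold change of Tie2-cko against control (horizontal axis) for 20 combinations of a T-box gene and a heart cell type or cardiomyocyte region, with points for edgeR's estimate and bars for its 95% interval. Every interval includes 0, and the sinus venosus intervals for Tbx18 and Tbx3 have the estimates farthest from 0.

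The difference of the genotype effect between CMs, EdCs, MCs and epicardial cells was tested in 1 fit with each library as a block. None of the 36 differences, for 6 members and 6 pairs of cell types, passed the threshold. Of all 14317 genes tested, 0 to 8 passed in a pair of cell types. The smallest unadjusted p was 0.0240, for Tbx18 in epicardial cells against CMs (difference in log2 fold change -0.41 ± 0.16), and the smallest adjusted p of any member was 0.581.

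Lists of related genes were followed in the same tests. In CMs none of the 12 cofactors tested, such as Isl1 (0.31 ± 0.14 on the log2 scale) and Hand2 (0.08 ± 0.12), and none of the 12 chamber genes known as T-box targets, such as Nppa (-0.26 ± 0.11) and Nppb (-0.36 ± 0.26), passed the test. The same held for the 10 atrioventricular canal and pacemaker genes, such as Rspo3 (-0.35 ± 0.24), the 8 pharyngeal genes of the Tbx1 network, such as Foxc1 (0.37 ± 0.24), and 3 other T-box genes. Their median log2 fold changes were 0.03, -0.01, -0.11, 0.17 and 0.02 in this order, beside 0.01 over all 15583 genes tested. In chamber EdCs the 7 atrioventricular canal and pacemaker genes tested had a median of 0.54, beside 0.00 over all 11536 genes, and none passed, with Bmp2 at 1.32 ± 0.45 and Hey1 at 0.55 ± 0.19. The 12 cofactors had a median of 0.20 there, with Gata6 at 0.33 ± 0.13, and none of them passed.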

How the data were processed

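Single-cell RNA libraries were made on the 10x platform from 4 samples of E10.5 heart. The deposited matrices hold raw UMI counts per gene and barcode, made by the authors with Cell Ranger and the mm10 genome. The file headers name Cell Ranger 6.1.2, while the methods name an older version. No deposited cell annotation was used.

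Barcodes were kept from 500 genes and 1000 UMIs upward if no more than 10% of the UMIs were mitochondrial, and doublets were removed by Scrublet score at 0.8% per 1000 barcodes (285 to 982 per library). The automatic Scrublet threshold marked 0 to 277 barcodes. Cells were clustered in Seurat 5.3.0 (R 4.3.3) on 2000 variable genes and 30 principal components at resolution 0.8, and CMs again at 0.6, with 19 T-box family and antisense genes left out of the variable genes. Clusters were named by marker lists. The clusters of few UMIs, those without Postn and the rules for CM regions were set after the clusters were seen, and 128 CMs led by haemoglobin genes stayed without a region. The T-box genes and all gene lists were chosen with earlier results of these data known.

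Levels are UMIs per 10000 averaged over cells, given for libraries with at least 20 cells, and shares of cells were taken after thinning to 5500 UMIs. Genotypes were compared on raw counts summed per library and cell type, where each library had at least 50 cells, with edgeR 4.0.16 (TMM, filterByExpr, quasi-likelihood test) and Benjamini-Hochberg adjustment over all genes tested in that comparison. Standard errors were taken from the log2 fold change and its F value. Scripts were tested on simulated data. Of the 32285 gene identifiers 32158 matched the GENCODE M21 annotation, and promoter sequences came from RefSeq. A member was tested where its mean control level was at least 0.2, and the 5 genes of highest r were named as most alike, apart from 1 that is not reported here. Genes of the lists were named by lowest p. Alternatives were DESeq2 1.42.0, no filter, each library left out, a term for libraries 5 and 6 against 7 and 8, stricter cell filters (1500 genes, 5% mitochondrial UMIs), finer clustering (resolution 1.2, and 1 for CMs), summed levels and no thinning.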

Additional observations from a re-analysis of the deposited data

How the results depend on the processing

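No T-box gene passed an adjusted p of 0.05 in any of the 189 alternative fits of the 21 combinations, where the smallest adjusted p was 0.0640, for Tbx20 in the joined EdCs with a term for libraries 5 and 6 against 7 and 8. The sign of the log2 fold change turned in 28 of them, 22 of which left out 1 library. With stricter cell filters it was -0.0391 for Tbx5 in CMs, 0.0883 for Tbx3 in atrioventricular canal CMs, and -0.0022 for Tbx20 and -0.0116 for Tbx5 in ventricular CMs. With finer clustering it was -0.0261 for Tbx20 in cushion EdCs and -0.0344 in outflow tract CMs. The cause was not tested. With 1 library left out, the log2 fold change of Tbx20 ran from -0.15 to 0.24 in CMs, -0.21 to 0.49 in chamber EdCs, -0.0632 to 0.16 in atrioventricular canal CMs, -0.15 to 0.17 in outflow tract CMs and -0.15 to 0.22 in ventricular CMs. That of Tbx5 ran from -0.0905 to 0.10 in CMs, -0.31 to 0.12 in atrioventricular canal CMs, -0.27 to 0.29 in sinus venosus CMs and -0.0851 to 0.10 in ventricular CMs. Tbx18 in sinus venosus CMs ran from -0.73 to 2.32, Tbx2 in atrioventricular canal CMs from -0.57 to 0.42 and Tbx3 there from -0.17 to 0.0787. A group left with 1 library was assumed to vary like the other group.

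The number of genes past the threshold moved with the settings. DESeq2 called 2 genes in CMs, 10 in EdCs, 18 in chamber EdCs, 7 in cushion EdCs, 9 in MCs, 2 in atrial, 3 in atrioventricular canal, 1 in outflow tract, 5 in sinus venosus and 2 in ventricular CMs. Without a filter on low counts edgeR called 110 in EdCs, 154 in chamber EdCs, 35 in cushion EdCs, 22 in MCs, 10 in epicardial cells, 18 in atrial, 14 in atrioventricular canal, 23 in outflow tract, 9 in sinus venosus and 15 in ventricular CMs. A term for libraries 5 and 6 against 7 and 8 gave 80 in CMs, 851 in EdCs, 806 in chamber EdCs, 94 in cushion EdCs, 80 in MCs, 65 in epicardial cells, 12 in atrial, 28 in atrioventricular canal, 108 in outflow tract, 9 in sinus venosus and 35 in ventricular CMs. Stricter cells gave 3 in cushion EdCs, and finer clustering 0 in EdCs. With 1 library left out, the count ran from 0 to 11 in CMs, 4 to 14 in EdCs, 1 to 144 in chamber EdCs, 8 to 14 in cushion EdCs, 1 to 12 in MCs, 6 to 41 in epicardial cells, 0 to 9 in atrial, 0 to 10 in atrioventricular canal, 2 to 47 in outflow tract, 1 to 25 in sinus venosus and 3 to 49 in ventricular CMs.

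No paired analysis was possible because the control and Tie2-cko libraries share no replicate number in the labels. The term for libraries 5 and 6 against 7 and 8 has 1 library of each genotype on either side, and so equals a block on those pairs, but the sources used here do not say that these libraries were matched. It turned the sign of no member. The automatic Scrublet threshold removed no further cell, so it gave the same cells and has no values of its own. Of 70 levels, 10 moved by more than the spread of the libraries when UMIs were summed over cells and 5 with finer clustering, and 62 of 70 shares of cells moved without thinning. Depth limits Tbx15 and Tbx1 in heart cells, and the number of cells limits the sinus venosus and the atrioventricular canal in library 6 (74 and 59 cells).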

Other observations

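Some members fell below the control level of 0.2 UMIs per 10000 that was required for the comparison of genotypes, and the following were chosen after their values were seen. Tbx5 in cushion EdCs, whose low level was close to that of outflow tract CMs, stood at 0.0244 and 0.0335 in the control libraries and 0.0656 and 0.0634 in the Tie2-cko libraries. Its CPM was 3.15 and 3.26 in the control libraries and 10.3 and 7.13 in the Tie2-cko libraries, and the log2 fold change was 1.41 ± 0.34 (unadjusted p = 0.00234 and adjusted p = 1.00 by edgeR's quasi-likelihood test). The cushion values rest on few Tbx5 UMIs, 13 and 17 in the control libraries and 42 and 41 in the Tie2-cko libraries. In chamber EdCs, where the Tbx5 level was higher, the log2 fold change was 0.13 ± 0.21. Outflow tract CMs, whose Tbx5 mean over the 4 libraries was the lowest of the heart groups, gave -0.68 ± 0.30. In the control libraries they stood at 0.0490 and 0.0460, above the cushion EdCs.

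Tbx18 had positive log2 fold changes of 1.30 ± 0.48 in chamber EdCs, 1.02 ± 0.42 in MCs and 0.88 ± 0.28 in atrial CMs, and none of these passed the adjusted threshold. Those in chamber EdCs and MCs rest on few UMIs, with 6, 13, 7 and 12 in chamber EdCs and 10, 21, 29 and 58 in MCs of libraries 5 to 8. Atrial CMs held 87, 87, 41 and 190 Tbx18 UMIs in these libraries. In ventricular CMs the log2 fold change was 0.32 ± 0.26 and the groups overlapped. In cushion EdCs Tbx18 had 3, 0, 3 and 9 UMIs in libraries 5 to 8 and was not fitted. Its level in MCs was 0.00904 and 0.0202 in the control libraries and 0.0228 and 0.0376 in the Tie2-cko libraries. In epicardial cells, which hold most of the transcript, the log2 fold change was 0.09 ± 0.14.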
